A study of Glycine max with 4 samples.

Results

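Broad binding sites of the soybean GLYMA.13G153200 protein are described here. They are stretches of chromatin called as bound over at least 700 bp in each of 2 ChIP replicates. ChIP-seq precipitates a protein together with the DNA fixed to it and counts the recovered fragments along the genome. A site was called shared where a peak of replicate 1 and a peak of replicate 2 overlapped by at least 1 bp, with each peak in at most 1 pair and the largest overlap taken. The 20 chromosomes held 20217 shared sites. Of these, 884 (4.37%) were at least 700 bp wide in both replicates and are called broad. Another 17294 (85.5%) were under 700 bp in both and are called narrow, and 2039 were wide in 1 replicate only. The broad sites were chosen by the width of the deposited peaks. Summit, fold and q come from the same peak call as the width, so every contrast of broad with narrow sites below is a description and was not tested.

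The samples are whole embryos of the cultivar Williams 82 at early maturation, dissected from seeds of 6 to 7 mm. The 2 ChIP samples were precipitated with an antibody against a peptide of the protein, and the 2 input samples are sheared chromatin that was not precipitated. All 4 share the same genotype, fixation in 1% formaldehyde for 10 minutes and shearing to 100 to 500 bp. There is no second condition, no ChIP with a control antibody and no plant without the protein. A whole embryo mixes tissues, so a site bound in a few cells and a site bound weakly in many cannot be told apart. Peak lists hold no marker levels, so the labelled tissue was not checked.

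The peak names call the target ABI5. In Arabidopsis, ABI5 is a basic leucine zipper (bZIP) factor that carries the abscisic acid signal in seeds. It binds DNA elements with an ACGT core, among them the abscisic acid response element, and is known for activating genes of late embryogenesis. A factor bound at a single position usually gives a peak about as long as the sheared fragments, with its summit, the position of highest enrichment, near the centre. A peak caller also joins enriched stretches that lie close together into a single interval.

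Replicate 1 had wider peaks than replicate 2, and the threshold of 700 bp therefore acted mostly through replicate 2. On chromosomes, 2922 of 28346 peaks (10.3%) were at least 700 bp in replicate 1 and 1096 of 28103 (3.90%) in replicate 2. The narrowest peak was 266 bp in replicate 1 and 224 bp in replicate 2, so 700 bp is 2.63 and 3.13 times the narrowest. Wide peaks were seldom without a partner, with 93.1% paired in replicate 1 (203 unpaired) and 99.3% in replicate 2 (8 unpaired). Of peaks of any width, 20217 of 28346 in replicate 1 and 20217 of 28103 in replicate 2 were paired. A longer peak also meets an overlap of 1 bp more easily. The broad sites make up 80.7% of the wide peaks of replicate 2 and 30.3% of those of replicate 1. Of the sites wide in 1 replicate only, 1835 were wide in replicate 1 and 204 in replicate 2.

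Widths of the broad sites ran from 700 to 4422 bp in replicate 1 (median 930) and from 700 to 2119 bp in replicate 2 (median 818). Narrow sites had medians of 431 bp and 368 bp in replicates 1 and 2. The smaller of both widths was under 800 bp at 433 broad sites, 800 to under 1000 bp at 314, 1000 to under 1200 bp at 96 and at least 1200 bp at 41. The median of the smaller width was 804 bp. The overlap covered all of the shorter interval at the median broad site and at least 90.2% of it at 95% of them. A short interval nested in a much longer one also counts as covered in full, and the median was 100% at narrow sites too. The left ends differed by a median of 60 bp and the right ends by 55 bp. Together the broad sites covered 881 kb in replicate 1 and 771 kb in replicate 2, which is 6.61% and 7.16% of the length called as bound on chromosomes.

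**Figure D1:**
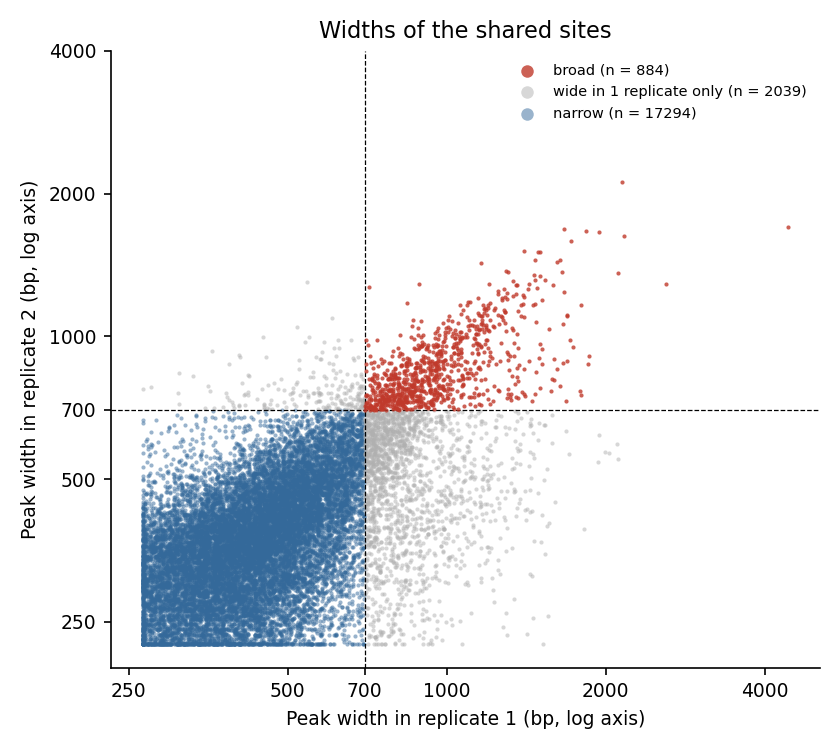
Peak width in replicate 1 (x axis, bp, log scale) against replicate 2 (y axis, bp, log scale), 1 point per shared site on the chromosomes; dashed lines mark 700 bp. The 884 broad sites fill the upper right corner, and the 2039 sites wide in 1 replicate only lie mostly to the lower right, where replicate 1 alone is wide.

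At the threshold itself the sites form a continuum. Just inside, each with a smaller width of 700 bp, were a site on chromosome 7 at 43542812 to 43543547 with a fold enrichment over local background of 6.57 in replicate 1 and 11.04 in replicate 2, a site on chromosome 8 at 5287013 to 5287826 with 5.99 and 5.22, and a site on chromosome 10 at 38474330 to 38475098 with 32.0 and 14.3. Just outside, each with a smaller width of 699 bp, were a site on chromosome 5 at 2467711 to 2468429 with 7.29 and 11.9, a site on chromosome 6 at 1989450 to 1990322 with 18.7 and 8.29, and another on chromosome 6 at 5448082 to 5448911 with 7.17 and 3.89. Positions count from 1 and follow the deposited lists, for which no genome build is named. Genes at these positions and their DNA sequence were not analysed here.

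The summit of a broad site usually lay farther from the centre of its interval than that of a narrow site, on either side. The median distance from summit to centre was 139 bp in replicate 1 and 150 bp in replicate 2 at broad sites, and 26.5 bp and 23.5 bp at narrow sites. A wide interval leaves more room for an off-centre summit, so the distance was also taken relative to that from centre to edge. On that scale the median over both replicates was 32.6% at broad sites and 14.6% at narrow sites. Only 123 broad sites (13.9%, exact Clopper-Pearson 95% interval 11.7 to 16.4) had the summit between 40% and 60% of the interval's length in both replicates, against 48.3% (47.5 to 49.0) of narrow sites. These intervals treat sites as independent and cover counting error only.

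Narrow sites piled up in the middle and broad sites did not. In replicate 2, 17.1% of broad sites had the summit between 70% and 80% of the length and 16.5% between 20% and 30%, while 10.9% had it between 40% and 50%. The narrow sites of replicate 2 had 3.50% at 70% to 80%, 3.50% at 20% to 30% and 33.1% at 40% to 50%. In replicate 1 the broad sites had 13.7% at 20% to 30%, 15.6% at 40% to 50%, 20.4% at 60% to 70% and 11.7% at 70% to 80%. Neither side was preferred, since the summit lay right of the centre at 51.2% of broad sites in replicate 1 and 50.7% in replicate 2.

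**Figure D2:**
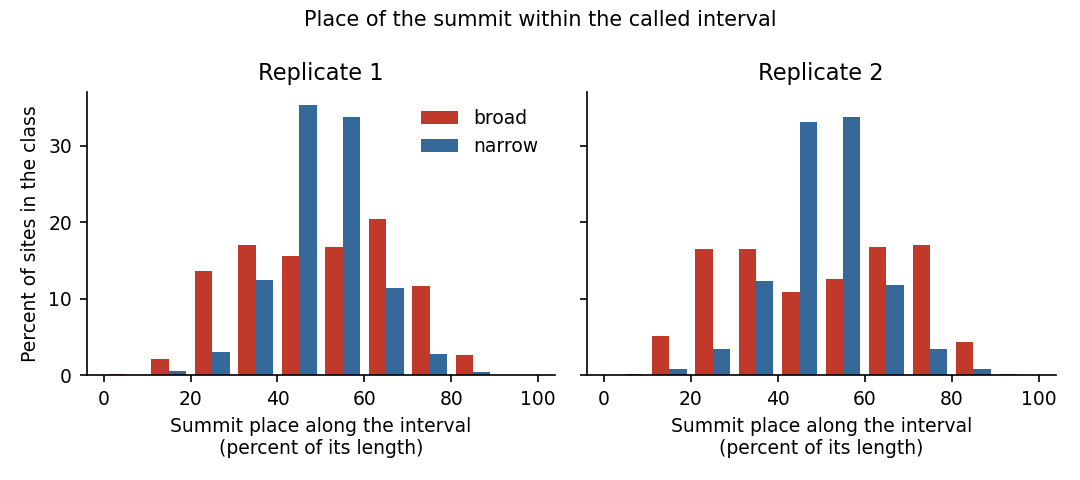
Percent of broad and of narrow sites (y axis) whose summit falls in each 10% of the called interval (x axis, percent of its length from the left end), in replicates 1 and 2. Narrow sites peak at the centre, with 35.3% of them at 40% to 50% in replicate 1, while broad sites spread over the range from 20% to 80%.

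The intervals extended to both sides of the summit, and further on one of them. The shorter side of a broad site, from the summit to the nearer end, had a median of 331 bp in replicate 1 and 268 bp in replicate 2, against 185 bp and 157 bp at narrow sites. The longer side had a median of 598 bp and 561 bp at broad sites and 240 bp and 205 bp at narrow sites. Longer over shorter side thus had medians of 1.86 and 2.14 at broad sites and 1.29 and 1.30 at narrow sites. Among broad sites both sides were longer at wider sites. The sides together make up the width, by which the sites were chosen. Longer sides at broad than at narrow sites, and at wider broad sites, thus follow largely from that choice. In replicate 1 the median of the shorter side was 317 bp at sites of 700 to under 800 bp and 434 bp at sites of at least 1200 bp, and that of the longer side was 529 bp and 1016 bp. In replicate 2 the shorter side had 252 bp and 432 bp, and the longer side 503 bp and 925 bp.

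Both replicates often had the summit on the same side of the centre, and a summit near an end was found in both at some broad sites. At 643 broad sites (72.7%, 69.7 to 75.6) the summits of both replicates lay on the same side of their interval's centre, against 53.2% (52.5 to 54.0) of narrow sites. Across broad sites Spearman's rho between the replicates' summit places was 0.45 (n = 884), and 0.086 across narrow sites (n = 17294). These are descriptions over sites of the same 2 libraries, and a summit near the centre, as at narrow sites, leaves little range for a correlation. The summit lay outside the range from 25% to 75% of the length at 123 broad sites (13.9%) in replicate 1 and at 236 (26.7%) in replicate 2. It did so in both replicates at 67 broad sites (7.58%), on the same side at 58 of these (86.6%).

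Summits of the replicates lay farther apart at broad sites than at narrow sites, above all at matched strength. Narrow intervals leave less room for distant summits, with median widths of 431 and 368 bp, or 534 and 457 bp at matched strength. The distance between summits was not scaled to the width, so this contrast is not separate from the choice by width. Sites wide in 1 replicate only resembled broad ones, with a median distance of 44 bp, at most 50 bp at 53.6% and above 200 bp at 14.5%. The distance had a median of 42 bp at broad sites and 37 bp at narrow sites, or 24 bp at narrow sites weighted so that their mean folds match those of broad ones. At 477 broad sites (54.0%) it was at most 50 bp, against 62.6% of narrow and 78.8% of weighted narrow sites, and at 153 (17.3%, 14.9 to 19.97) it was above 200 bp, against 2.36% (2.14 to 2.60) of narrow sites. In 25 of these 153 the summits lay on the same side of the centre, and in the others each replicate had its summit on another side. The second replicate's summit nevertheless fell inside the first replicate's interval at 881 of the 884 broad sites. Broad sites with summits over 200 bp apart were weaker than those with summits within 50 bp. Their median fold was 6.77 in replicate 1 and 6.78 in replicate 2, against 11.1 and 11.2.

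At the 5 broad sites with the summits farthest apart, the paired peaks of the 2 replicates had their summits on different parts of the bound stretch. On chromosome 11 at 25141981 to 25143632 the summits were 884 bp apart, at 74.5% of the interval's length in replicate 1 and at 16.3% in replicate 2, although the intervals of 1652 and 1368 bp nearly coincide. Its fold was 13.1 and 9.13 (11.1 ± 2.79, SD, n = 2). On chromosome 13 at 32176145 to 32177930 the distance was 932 bp, the largest among the broad sites, and the interval was 1786 bp with a fold of 22.7 in replicate 1 and 768 bp with 5.89 in replicate 2. Here replicate 2 had a second, separate peak under the wide interval of replicate 1. The same held on chromosome 9 at 34351619 to 34353412 (817 bp apart, fold 8.04 and 4.73) and on chromosome 4 at 4092472 to 4094129 (795 bp apart, fold 7.90 and 7.68). On chromosome 7 at 1697945 to 1699267 (827 bp apart, fold 6.81 and 10.9) it was replicate 2 that had the wide interval, over 2 peaks of replicate 1. At the sites on chromosomes 13, 9, 4 and 7 the summit of the wide interval lay outside the paired shorter peak. The summit of the other peak was not compared, so distances and folds there may set different peaks against each other.

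Such splits were infrequent among the broad sites. The interval of 1 replicate covered at least 2 peaks of the other at 31 of 884 broad sites (3.51%, 2.39 to 4.94) and at 44 of 17294 narrow sites (0.254%). Replicate 1 held the covering interval at 30 of the 31 broad ones. Of the sites wide in 1 replicate only, 277 of 2039 (13.6%, 12.1 to 15.1) had such a split, more than among the broad sites. The rule of a width of 700 bp in both replicates therefore passes over stretches that replicate 2 called as separate shorter peaks.

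The 10 broad sites with the largest smaller width include some of the strongest and some of the weakest. On chromosome 4 at 7931639 to 7933584 the peak was 1946 and 1661 bp wide with a fold of 59.1 and 61.9 (60.5 ± 1.95, SD, n = 2). On chromosome 13 at 1632256 to 1634001 it was 1670 and 1685 bp wide with 44.3 and 29.1 (36.7 ± 10.7), and on chromosome 3 at 36229009 to 36230528 it was 1504 and 1503 bp wide with 30.0 and 15.7 (22.8 ± 10.2). In the last of these the summit sat at 80.8% and 82.9% of the length, and the replicates' summits were 16 bp apart.

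A similar one-sided shape with a reproducible summit was seen at a site on chromosome 17 at 1065576 to 1067132. Its summits lay 8 bp apart at 18.6% and 14.5% of the length, with a fold of 8.19 and 13.8. Sites on chromosome 16 at 4820816 to 4822310 (fold 11.8 and 11.3, summits 8 bp apart), chromosome 19 at 34804784 to 34806664 (8.64 and 11.01, 78 bp apart) and chromosome 12 at 6311593 to 6313314 (9.24 and 9.73, 739 bp apart) were of intermediate strength. At the last of these the summit lay at 26.3% of the length in replicate 1 and at 69.7% in replicate 2.

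**Figure D3:**
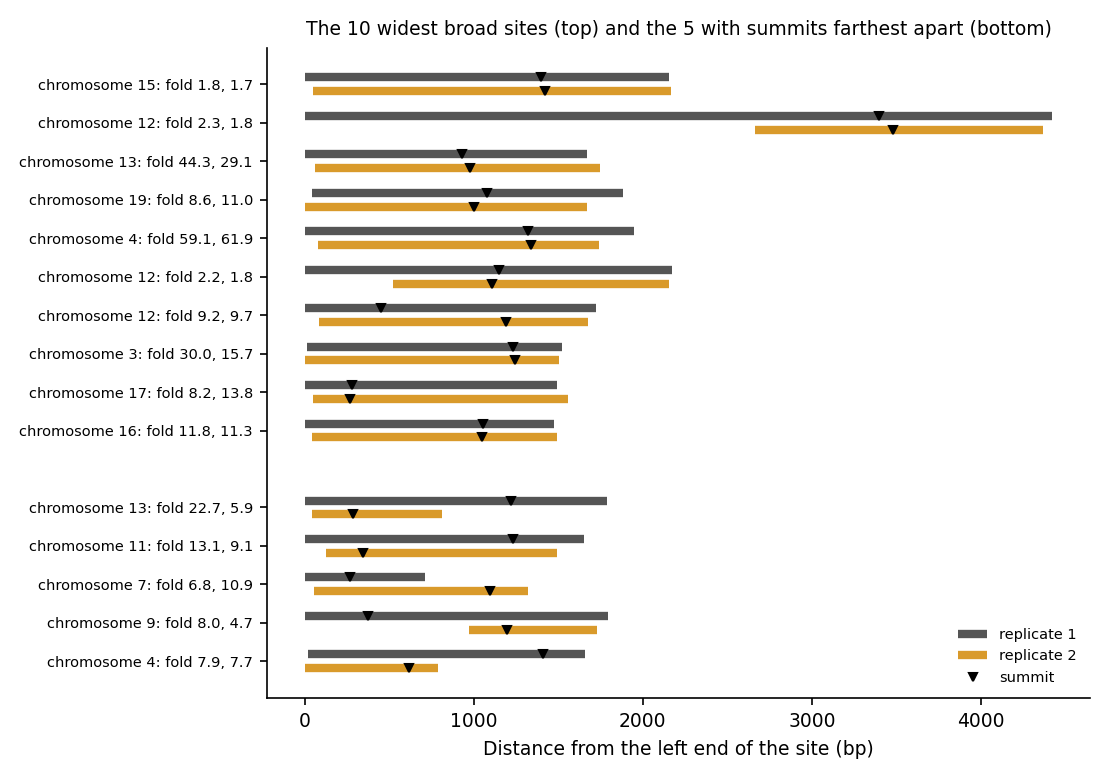
Called intervals (bars) and summits (triangles) of both replicates at the 10 widest broad sites and at the 5 with summits farthest apart, drawn from the left end of each site (x axis, bp); row labels give the chromosome and the fold in replicates 1 and 2. Summits coincide at most of the widest sites, whereas in the bottom 5 rows they lie 795 to 932 bp apart.

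The remaining 3 of the 10 widest sites had a high background and a low fold. The local background behind a fold was solved from the deposited fold and p of each peak and is an inferred number of fragments, not a value of the authors. On chromosome 15 at 47404088 to 47406253, the site with the largest smaller width, the intervals were 2152 and 2119 bp, the fold was 1.84 and 1.75 and the background 218 and 230 fragments. On chromosome 12, the sites at 39190326 to 39194747 and at 39183938 to 39186108 had a fold of 2.31 and 1.84 and of 2.24 and 1.82, with backgrounds of 226 to 239 fragments. Together with a site between them, at 39187321 to 39188519 with a fold of 2.14 and 1.81, they form a run of 3 broad sites over 10810 bp, the only run of 3 with gaps of at most 5 kb. The others of the 5 lowest mean folds were on chromosome 13 at 7358792 to 7359604 (2.05 and 1.74), chromosome 15 at 29949276 to 29950187 (2.13 and 1.78) and chromosome 1 at 53488084 to 53488982 (2.06 and 1.86), with backgrounds of 186 to 234 fragments.

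In all, 12 broad sites (1.36%) on 7 chromosomes had a background above 20 fragments in both replicates, close to the 1.18% of narrow sites. Over all broad sites the median background was 7.03 and 5.90 fragments in replicates 1 and 2, and 7.11 and 5.90 over narrow sites. Another shared site lay within 2 kb of 11 of the 12, against 39 of 204 narrow sites with such a background (19.1%). Without these 12 sites the broad sites had a median of 143.5 bp from summit to centre and a median fold of 9.28, and 31.8% had a neighbour within 2 kb.

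Broad sites were stronger than narrow ones in both replicates. The median fold was 8.98 in replicate 1 and 9.27 in replicate 2 at broad sites, and 4.83 and 5.195 at narrow sites. Median −log10 q was 44.3 and 40.1 at broad sites and 14.05 and 13.96 at narrow sites. The inferred number of fragments over the summit had medians of 75.5 and 67 at broad sites and 39 and 37 at narrow sites. Width and strength come from the same call and are not independent.

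The share of shared sites that were broad was highest among the strongest sites and low below the middle of the range. It was 0.692% in decile 1 of mean fold, the weakest, 0.346% in decile 2, 1.14% in each of deciles 4 and 5, 5.00% in decile 8 and 19.2% in decile 10. Of the 10 shared sites with the highest mean fold 9 were broad, of the 100 highest 61, and of the 315 with a mean fold of at least 20, 128 (40.6%). The 5 strongest broad sites were on chromosome 18 at 57421164 to 57422642 (64.7 ± 2.79, SD, n = 2), chromosome 6 at 7253141 to 7254997 (64.2 ± 3.58), chromosome 4 at the wide site above, chromosome 13 at 26321522 to 26322491 (60.1 ± 10.3) and chromosome 2 at 40344950 to 40345973 (58.2 ± 0.15). On chromosome 6 the paired intervals were 1857 bp in replicate 1 and 907 bp in replicate 2. Their summits were 21 bp apart and the folds were 66.7 and 61.6. Here too replicate 2 had a second, separate peak under the wide interval of replicate 1. On chromosome 18 the summits of both replicates fell on the same base.

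A high fold was not needed for a broad interval. Of the broad sites, 57 (6.45%) had a mean fold under 5, and 45 of them had a background of at most 20 fragments. These 45 had median folds of 4.42 and 4.29 and median widths of 877 and 805 bp, from 39 and 32 fragments over the summit. Their summits lay a median of 121 bp apart. Within the broad sites width followed strength only weakly. Spearman's rho of width and fold was 0.21 in replicate 1 and 0.11 in replicate 2 (n = 884), against 0.62 and 0.57 across narrow sites (n = 17294). The threshold on width shortens the range on either side of it, so these values do not compare the strength of a relation.

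Fold agreed between replicates to within 1.5 times at 567 broad sites (64.1%) and at 70.1% of narrow sites. Narrow sites weighted to the folds of broad ones had 54.0%, so the direction turns at matched strength. Spearman's rho of fold between replicates was 0.71 across broad sites and 0.48 across narrow sites, which cover a smaller range of folds. Replicate 1 had the higher fold at 56.7% of broad sites and 42.7% of narrow sites. The broad sites of at least 1200 bp had a median fold of 13.4 and 13.3, and those of 700 to under 800 bp 8.44 and 8.55.

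Off-centre summits were also seen among broad sites at matched strength. Narrow sites were weighted so that each of 20 equal classes of mean fold held the share it has among broad sites, which brought their median fold to 9.23, against 9.20 at broad sites. The match is coarse at the top, where 14.5% of broad sites and 4.02% of weighted narrow sites had a mean fold of at least 20. The median distance from summit to centre was 139 and 150 bp at broad sites, and 22.0 and 21.5 bp at narrow sites so weighted. Relative to the distance from centre to edge the medians were 32.6% and 10.3%. The share with summits over 200 bp apart was 17.3% at broad sites and 0.529% at weighted narrow sites. The weighting matched fold and not width, so narrow intervals still left less room for such distances.

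The strongest broad sites had the summits nearest to the centre and to each other, while deciles 1 to 6 showed no steady order. In decile 10 of mean fold, the strongest, 388 broad sites had a median distance to the centre of 124 bp, against 24.0 bp at narrow sites, and 5.67% of them had summits over 200 bp apart. In decile 6 the 61 broad sites had 178 bp, against 26.0 bp at narrow sites, and 47.5% had summits over 200 bp apart. Deciles 1 to 5 held only 7 to 23 broad sites each, with median distances to the centre of 164 bp in decile 1 to 240 bp in decile 3, and with summits over 200 bp apart at 14.3% in decile 1 to 57.1% in decile 2. The 123 broad sites with a central summit in both replicates had a median fold of 12.7 and 12.9, and the 67 with a summit toward an end in both had 6.80 and 7.09.

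**Figure D4:**
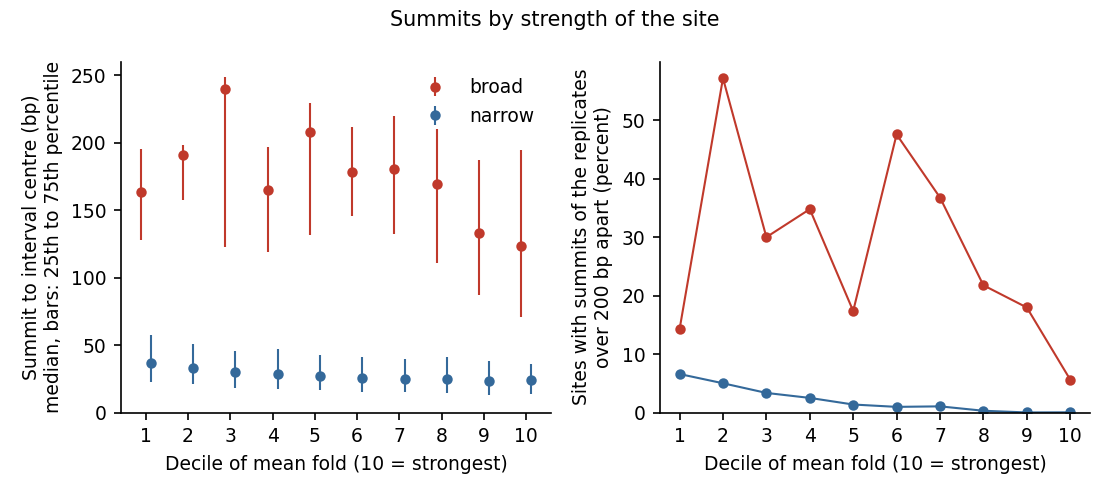
Left, distance from the summit to the interval centre (y axis, bp, mean of both replicates; points are medians, bars run from the 25th to the 75th percentile), and right, percent of sites with summits of the replicates over 200 bp apart, for broad and narrow sites by decile of mean fold (x axis, 10 the strongest). Broad sites lie above narrow sites in every decile, and deciles 1 to 5 hold only 7 to 23 broad sites each.

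Along the chromosomes the broad sites were distributed much as the narrow ones. The outer regions, taken as 20% of a chromosome's extent from each end, held 632 broad sites (71.5%, 68.4 to 74.5) and 68.7% (68.0 to 69.4) of narrow sites. Over 20 chromosomes the share was 72.0% ± 10.8 for broad and 70.0% ± 10.9 for narrow sites (SD), and the difference of 1.99 percentage points ± 7.22 was smaller than its spread. It was higher for broad sites on 12 of 20 chromosomes. Both outer regions held 316 broad sites each. Broad sites were denser in the outer regions than in the inner part on 20 of 20 chromosomes, with 1.69 ± 0.40 and 0.45 ± 0.24 per Mb (SD, n = 20 chromosomes).

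The share of shared sites that were broad was nearly level from end to end. Over 10 equal parts of the chromosomes it ran from 3.76% in part 7 (2.45 to 5.50) to 4.72% in part 10 (4.08 to 5.42), and it was 4.69% (4.05 to 5.39) in part 1. These intervals overlap. By chromosome the share was 4.39% ± 0.59 (SD, n = 20), lowest on chromosome 15, with 28 of 938, and highest on chromosome 16, with 38 of 649. Chromosome 6 had the most broad sites, 61, and chromosome 11 the most per Mb, 1.32. Chromosome 13 held 57 broad sites, 45.6% of them in its outer regions, the lowest such share of any chromosome for broad sites, as it was for narrow sites (33.5%). The terminal 1 Mb held 85 broad sites (9.62%, 7.75 to 11.8) and 7.79% (7.39 to 8.20) of narrow sites.

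Broad sites had other shared sites nearer to them than narrow sites did, but by how much depended on how distance was measured. Between the ends of the intervals, the nearest other shared site was a median of 4099.5 bp from a broad site and 6978.5 bp from a narrow one. Within 2 kb, 288 broad sites (32.6%, 29.5 to 35.8) and 23.9% (23.3 to 24.5) of narrow sites had such a neighbour. Narrow sites weighted to the strength of broad ones had 25.1%. The share was higher for broad sites on 15 of 20 chromosomes, with 31.9% ± 7.91 for broad and 23.8% ± 1.88 for narrow sites (SD, n = 20). From summit to summit, which a wide interval lengthens, 20.9% (18.3 to 23.8) of broad and 19.0% (18.5 to 19.6) of narrow sites had a neighbour within 2 kb, and these intervals overlap. Within 5 kb from summit to summit the shares were 50.6% (47.2 to 53.9) and 39.4% (38.7 to 40.1). Sites wide in 1 replicate only had shares close to those of broad sites. They had 31.5% within 2 kb between ends, and 23.0% within 2 kb and 47.9% within 5 kb from summit to summit.

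**Figure D5:**
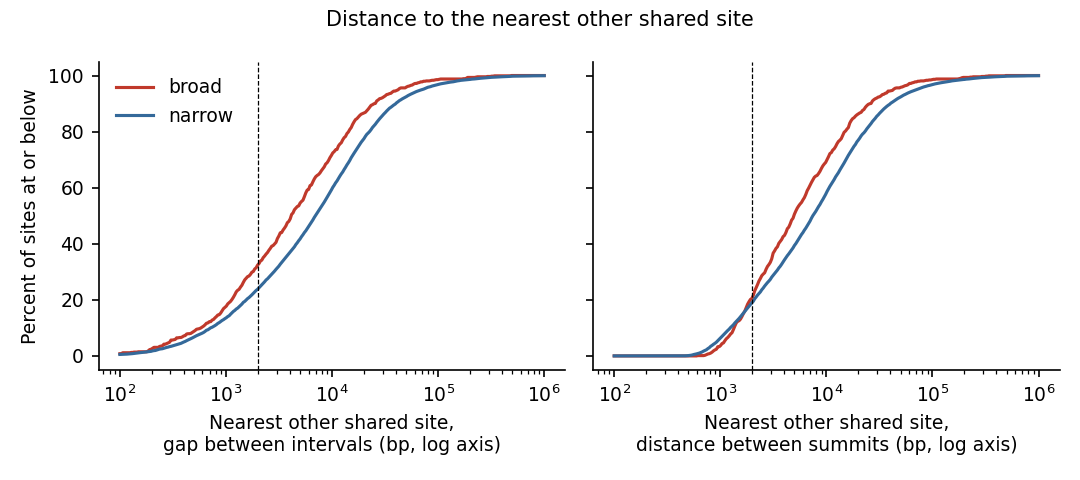
Percent of broad and narrow sites (y axis) with another shared site at or below a given distance (x axis, bp, log scale), measured between interval ends (left) and between summits (right); the dashed line marks 2 kb. Between ends 32.6% of broad and 23.9% of narrow sites have a neighbour within 2 kb, while between summits the curves meet near 2 kb, at 20.9% and 19.0%, and part above it.

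The nearest neighbour of a broad site was usually weaker, as most shared sites are, and less often narrow than shared sites are as a whole. Of the 288 broad sites with a neighbour within 2 kb, 215 (74.7%, 69.2 to 79.6) had a narrow site as the nearest, while 85.5% of all shared sites are narrow and 82.4% of the neighbours of narrow sites were. Another 46 had a site wide in 1 replicate only, and 27 (9.38%, 6.27 to 13.3) had another broad site, while 4.37% of all shared sites are broad. The nearest neighbour had the lower mean fold at 241 of the 288 (83.7%). Among other sites with a neighbour within 2 kb, it did so at 66.0% of those wide in 1 replicate only and 44.9% of narrow ones. The median of the mean fold was 9.20 at broad sites, 5.56 at their neighbours within 2 kb and 5.32 over all shared sites. Most shared sites are thus weaker than a typical broad site, near it or not, and the share to be had from that alone was not computed. Broad sites were few along the chromosomes, with 0.95 ± 0.22 per Mb (SD, n = 20 chromosomes), and the median gap between successive ones was 387 kb. Runs of broad sites with gaps of at most 5 kb numbered 26 with 2 members and 1 with 3, and the other 829 broad sites stood alone among broad sites. At the other end, 12 broad sites (1.36%) and 3.19% of narrow sites had no shared site within 100 kb. These 12 had median folds of 8.46 and 8.51 and median widths of 982 and 853 bp, and lay on 8 chromosomes.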

How the data were processed

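The authors deposited 1 narrowPeak list for each ChIP replicate, which places the peak call at the level of the sample. The submitters' processing notes name Bowtie 0.12.7 and MACS3, while caller options, the control used and the genome build are not given there. For each peak the authors deposited a fold enrichment (a ratio), a −log10 p and a −log10 q. The deposited score was not used. Peak names carry a q threshold of 0.01, and those of the second list read BR3, although its sample is labelled replicate 2.

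Pairing, widths, summit places, positions and neighbours were computed with Python 3.11.15, pandas 2.3.3 and SciPy 1.17.1, and checked on simulated data. Neighbour gaps run between the outer ends of each pair. Chromosome extents end at the last peak. Fragments over the summit and background were solved from fold and p under MACS's Poisson model, within a relative error of 2e-05 for 100% of peaks. These are inferred, have medians of 37 and 34 fragments over peaks on chromosomes, and are not library depth, which is unknown.

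Members, classes and named sites were chosen with earlier results of these data known. Named sites are the 10 widest by the smaller width, the 5 highest and 5 lowest mean folds, the 5 largest summit distances, and 3 on each side of the threshold. Input samples were not analysed here, and genes and motifs were left out, since the files name no build and so cannot be joined to the RefSeq gene table.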

Additional observations from a re-analysis of the deposited data

How the results depend on the processing

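Values that moved by less than the difference between replicates (1 SD) or their 95% interval, and counts within 1.5 times, were taken as kept: 42 of 63. With 600 bp as the minimum width there were 1788 broad sites, with a median distance to the centre of 109 bp (143.6 bp at 700 bp) and a median fold of 8.88 (9.20). With 1000 bp these were 137, 245.5 bp and 11.3, and the summits were 37 bp apart (42). Choosing by 1 replicate alone gave 1088 to 2719 sites, 102 to 132.5 bp, a fold of 7.69 to 8.75 and splits at 5.15% to 10.4% (3.51%); the higher number of sites and share of splits came with replicate 1 alone, whose peaks are wider. The distance to the centre was 32.6% of that from centre to edge. Outer regions of 10% and 30% held 42.4% and 86.8% of broad and 39.1% and 85.1% of narrow sites. Neighbours within 1 kb, within 5 kb, from summit to summit and among all peaks were found at 17.4%, 54.5%, 20.9% and 49.2% of broad and 13.6%, 41.7%, 19.0% and 36.9% of narrow sites. A larger overlap and stricter q moved no value beyond these limits, nor did 2 alternatives chosen after seeing the data, a width of 3 times the narrowest peak in each list (778 sites) and leaving out sites with a background above 20. Motif alternatives were not run without a genome of the files' build. No paired analysis was possible because both peak lists belong to 1 group.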
